A study of Homo sapiens with 6 samples.

Results

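The genes described here are 38 genes of protein folding, the unfolded protein response and protein degradation at the endoplasmic reticulum (ER), taken by name from a list. All 38 were found among the 58523 genes to which the measured transcripts were summed, and 37 of them had enough counts to be tested among 22580 genes. They were measured by RNA sequencing in A375, an established human melanoma cell line. The control group was 3 untreated cultures (replicates 1 to 3), and the treated group was 3 cultures given hMGL for 24 h (replicates 4 to 6). hMGL is a human enzyme engineered to break down methionine, so the comparison asks how mRNA levels differ after this enzyme is added. The labels give no dose, all cultures were of 1 cell line, and the controls were left untreated rather than given an inactive protein.

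Proteins that are secreted or sit in membranes enter the ER through the Sec61 channel, fold there with the help of chaperones and disulfide-forming enzymes, and are pulled out for destruction by ER-associated degradation (ERAD) when they fail. When unfolded proteins build up, the sensors IRE1 (gene ERN1), ATF6 and PERK (gene EIF2AK3) start the unfolded protein response: IRE1 splices the mRNA of the transcription factor XBP1 outside the nucleus, ATF6 is cut by proteases of the Golgi to release a transcription factor, and PERK phosphorylates the translation factor eIF2 alpha, which raises translation of ATF4. ATF6 and XBP1 are best known for switching on chaperones and ERAD genes together, and shortage of an amino acid reaches ATF4 by another kinase, GCN2, without the ER.

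In the treated cultures the listed genes split by function, a split that further genes of these pathways did not all share. The mRNAs of the sensors IRE1 and ATF6, of XBP1 and of most listed ERAD factors rose, while those of 6 of the 7 genes in the group of chaperones, lectins and secreted ER factors, and of 7 of the 8 in oxidative folding, fell. Of 18 further ERAD genes, 6 rose and 10 fell. Of 8 genes for the ER chaperones BiP and GRP94 and for ER DNAJ cochaperones, 4 rose and 2 fell. Of 12 genes of N-glycosylation and glycan trimming, 1 rose and 10 fell. Of 37 tested, 13 rose, 20 fell and 4 did not pass the test (edgeR quasi-likelihood test, Benjamini-Hochberg adjusted p under 0.05). This threshold was passed by 69.4% of all genes tested, 34.9% of them higher and 34.5% lower in treated cells, so a call by itself is common in this comparison. The median log2 fold change was -0.19 for the 37 genes and -0.02 for all genes. The values of treated and control libraries did not overlap for 32 of the 37, against 73.3% of all genes. A change of at least 2-fold was called for 2 genes that rose and 4 that fell, against 27.2% of all genes in either direction. With limma on log2(TPM + 1) in place of edgeR on counts, the split was 12 higher and 11 lower and the median was 0.05. TPM is a measure that divides by transcript length, but this fit also drops the TMM scaling of libraries and uses another test. The 9 genes that left the lower set with TPM were ATF6B, MBTPS1, CANX, HYOU1, SDF2L1, PDIA5, ERO1A, ERO1B and EDEM1. With edgeR, TMM and an offset for effective length, 17 genes were lower and the median was -0.05. Of the 9 genes, only PDIA5, ERO1B and EDEM1 did not pass as lower with that offset.

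**Figure D1:**
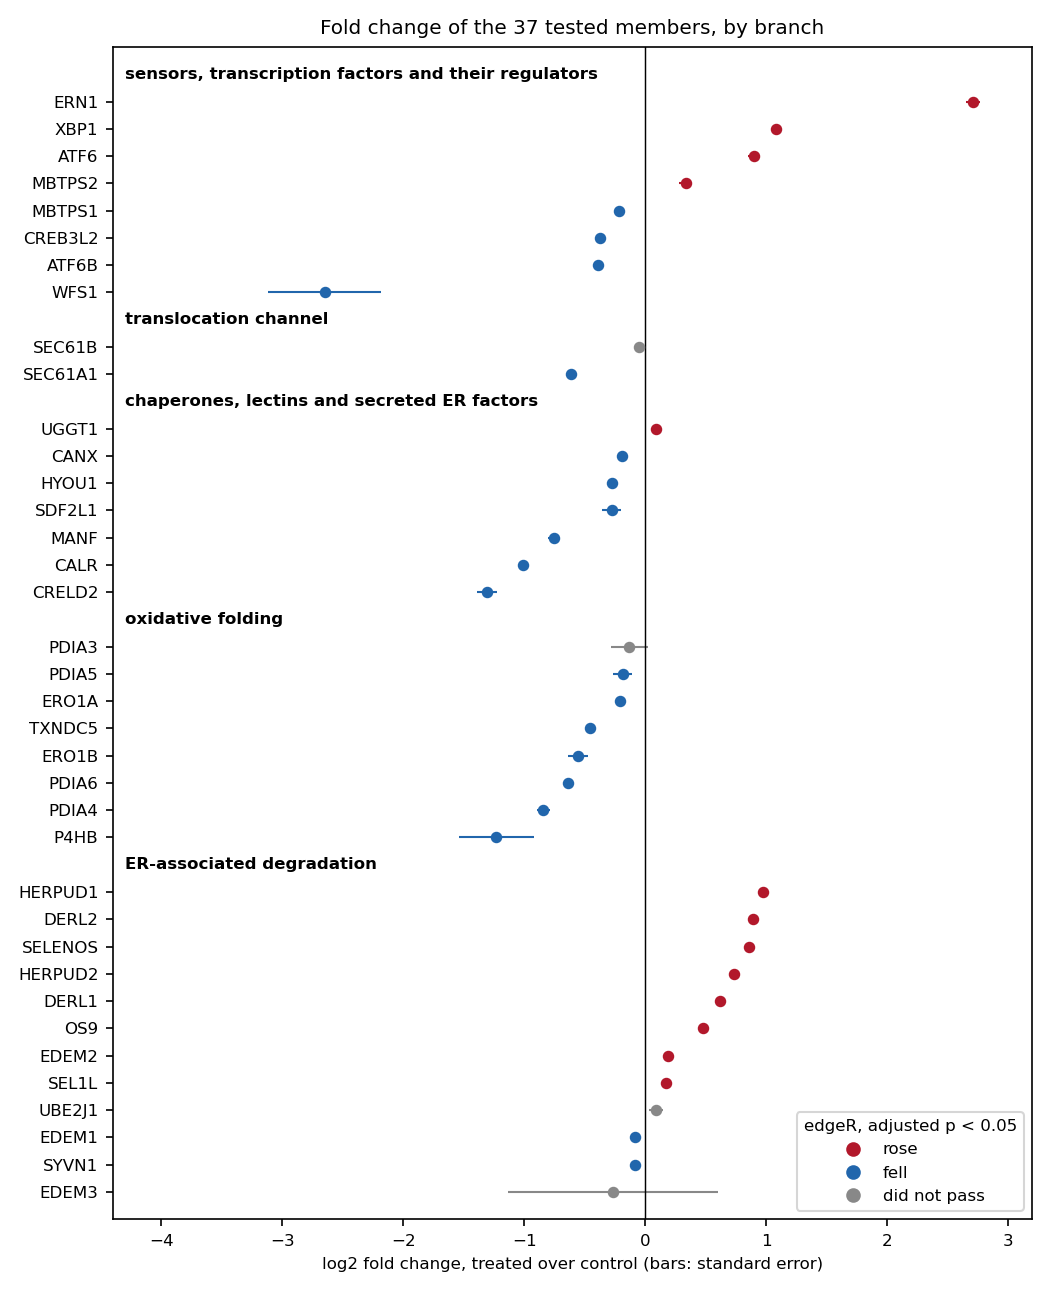
Log2 fold change (x axis, treated over control, with standard error) of the 37 tested genes, grouped by function, in red where the gene rose, blue where it fell and grey where it did not pass. ERN1 stands at 2.71 and WFS1 at -2.65. The 8 ERAD genes that rose stand right of 0, and 6 genes of the chaperone group and 7 of oxidative folding that fell stand left of it.

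Libraries held 50760266 to 59954677 estimated counts. Levels are given as CPM, counts scaled to a common library size, as the mean ± SD of 3 libraries. Errors of log2 fold changes are standard errors (SE). Adjusted p values of genes are from the edgeR test. Of the markers of the melanocyte lineage, SOX10 was at 417.4 ± 31.4 CPM in control and 349.7 ± 6.77 in treated cells and MITF was at 43.8 ± 1.86 and 41.5 ± 0.40, while the pigment genes PMEL, MLANA, TYR, DCT and TYRP1 were between 0.063 and 2.05 CPM in group mean. Summed over their lists, markers of fibroblasts were at 8.03 to 8.25 CPM in control and 3.09 to 3.44 in treated libraries, those of endothelium at 6.53 to 7.11 and 7.35 to 7.94, those of epithelium at 15.9 to 17.9 and 10.2 to 10.95 (most of it KRT14), and those of leukocytes at 36.0 to 40.4 and 38.4 to 40.7 (most of it CD68). KRT1 was at 0 in all libraries, and EPCAM, PTPRC, CD3E and CDH5 were below 0.2 CPM in both groups. Because libraries are scaled to each other, the levels show shares of the RNA, and neither less RNA per cell nor fewer cells can be read from them.

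Of the 8 sensors, transcription factors and their regulators, 4 rose and 4 fell, against 34.9% and 34.5% of all genes. ERN1, which encodes the kinase and RNase IRE1, was at 6.87, 6.62 and 6.15 CPM in the control libraries and at 44.9, 42.8 and 41.1 CPM in the treated libraries. The lowest treated library was far above the highest control, and the log2 fold change was 2.71 (SE 0.054, adjusted p = 2.37e-17), the highest of the 37 tested genes. Per length it was among the lowest of them in control cells, at 1.55 ± 0.56 TPM, and at 7.80 ± 0.51 TPM in treated cells. The rise was mainly in the full-length transcript ERN1-201, which held 72.2% ± 3.93 of the counts of the gene in control and 88.4% ± 1.35 in treated cells.

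ATF6, the membrane-bound sensor that is cut to release a transcription factor, rose by a log2 of 0.90 (SE 0.047, adjusted p = 7.95e-12). Its libraries were at 21.2, 18.8 and 20.4 CPM in control and 37.7, 36.4 and 38.7 CPM in treated cells. Its paralog ATF6B, generally held to be the weaker activator, went the other way, from 39.7, 37.9 and 37.4 CPM to 29.3, 29.9 and 28.6 CPM (log2 fold change -0.39, SE 0.038, adjusted p = 5.20e-08). Per length ATF6B was the higher of the pair in both groups, at 8.51 ± 0.76 TPM against 2.39 ± 0.17 in control and 7.74 ± 0.69 against 4.75 ± 0.38 in treated cells. The proteases that cut ATF6 also went apart. MBTPS2, which makes the second cut inside the membrane, rose from 18.0 ± 0.86 to 22.7 ± 0.90 CPM, and MBTPS1, which makes the first, fell from 164.1 ± 6.69 to 141.1 ± 4.84 CPM. With limma on log2(TPM + 1), neither the fall of ATF6B (-0.12, adjusted p = 0.324) nor that of MBTPS1 (-0.10, adjusted p = 0.356) passed. CREB3L2, another transcription factor released from the ER membrane by these proteases, was at 43.0, 41.2 and 43.2 CPM in control and 33.2, 31.8 and 33.3 CPM in treated libraries (log2 fold change -0.37, SE 0.038, adjusted p = 8.46e-08).

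WFS1, an ER membrane protein known to restrain ATF6 signalling, had the deepest fall, though it is outside the rule for genes shown by library and was picked after its values were seen. Its control libraries were at 5.94, 10.3 and 11.7 CPM and its treated libraries at 2.09, 1.53 and 0.798 CPM. The groups did not overlap and the log2 fold change was -2.65 (SE 0.47, adjusted p = 0.00698). The spread came with a change of transcript between libraries: WFS1-201 had 0, 360.4 and 320.5 estimated counts and WFS1-202 had 295.6, 0 and 162.6 in control replicates 1, 2 and 3. Transcripts not matched to a gene are left out of the sum, so the WFS1 level and its fall may cover a part of the total.

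**Figure D2:**
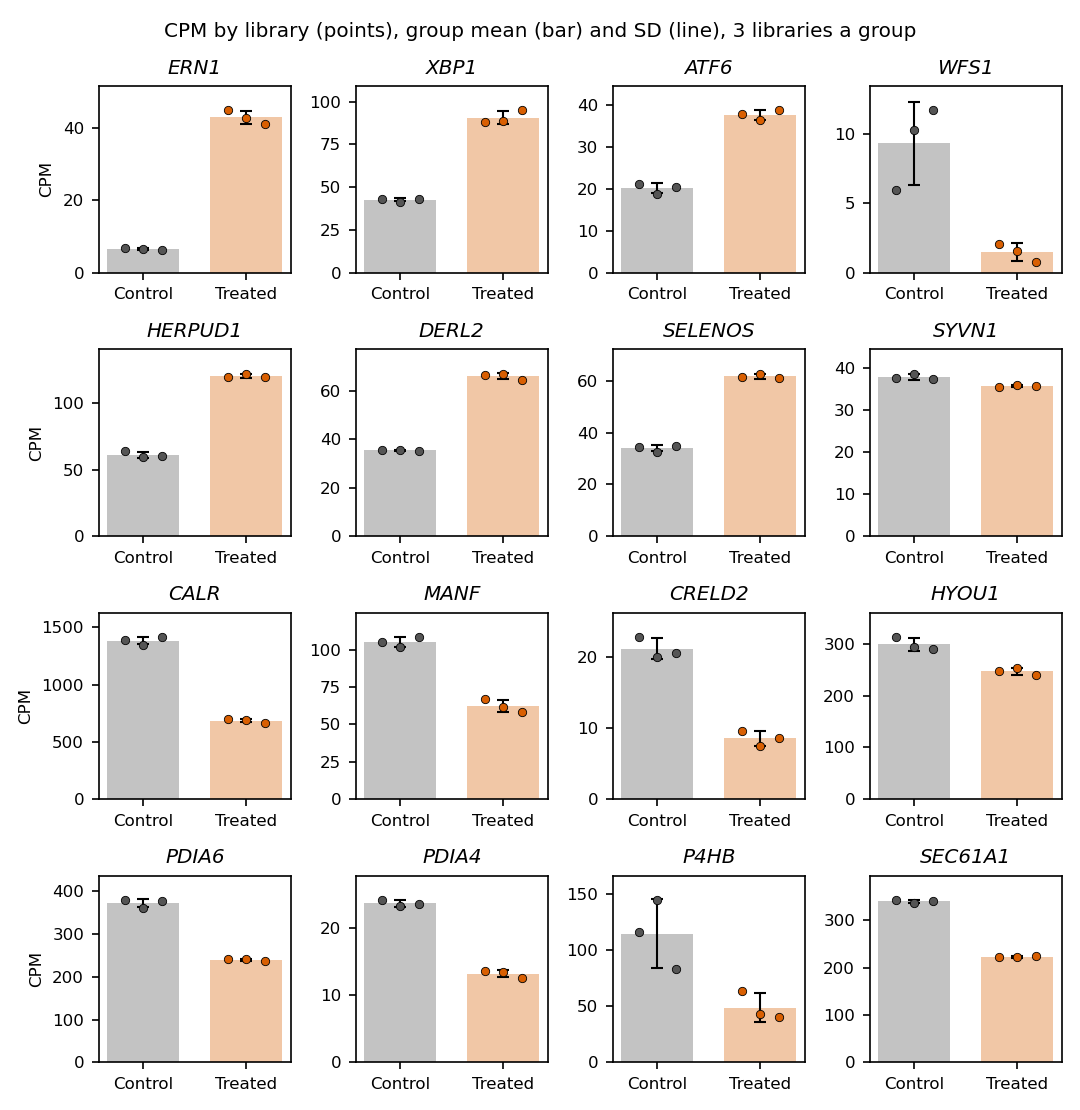
CPM of 16 of the 38 genes in each library (y axis, from 0), with points for libraries, bars for the group mean and lines for the SD of 3 libraries. Treated libraries are on one side of all control libraries in every panel, and P4HB and WFS1 have the widest spread in the control group. Genes whose groups overlap, such as EDEM1 and EDEM3, are not among the panels, and 73.3% of all genes tested had no overlap.

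XBP1 was at 43.3, 41.5 and 43.0 CPM in control and 88.1, 88.6 and 94.9 CPM in treated libraries (log2 fold change 1.09, SE 0.038, adjusted p = 3.53e-14). Its mRNA exists in an unspliced form and in a form from which IRE1 has removed 26 bases. The removal shifts the reading frame and gives the longer protein that activates transcription. The annotation holds both forms, which allows their shares to be set side by side. Their sequences around the site (GRCh38, chr22:28796098-28796171, minus strand) are shown because the split rests on them. Capitals mark the 26 bases absent from XBP1-202 as the annotation places them (chr22:28796122-28796147). The letters just before this stretch recur at its end, so placements shifted by a few bases give the same joined sequence. The exact cut positions of IRE1 are therefore not marked.
XBP1-201, with the intron: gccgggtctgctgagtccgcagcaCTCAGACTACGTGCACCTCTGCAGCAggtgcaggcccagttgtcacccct
XBP1-202, without the intron: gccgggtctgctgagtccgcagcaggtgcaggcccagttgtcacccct

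XBP1-201 codes for 261 residues and XBP1-202 for 376. Estimated counts on XBP1-202 were 735.4, 735.4 and 729.2 in control and 1420, 1288 and 1150 in treated libraries. Estimated counts on XBP1-201 were 1345, 1110 and 1346 in control and 2443, 2408 and 2724 in treated libraries. Both forms therefore were higher in every treated library, by a log2 of 0.89 for XBP1-202 (adjusted p = 3.67e-04) and 1.09 for XBP1-201 (adjusted p = 6.50e-04, edgeR over 95285 transcripts, of which 30.3% passed, 16.4% higher and 13.9% lower). XBP1-204, which keeps the intron and starts at another first exon, had 117.5, 125.6 and 67.6 counts in control and 646.8, 564.2 and 589.6 in treated libraries (log2 fold change 2.62, adjusted p = 9.48e-04).

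The form without the intron took 31.0%, 34.9% and 32.1% of the counts on transcripts that span the site in control libraries, and 30.4%, 29.1% and 24.9% in treated libraries. Every treated library was below every control library, with means of 32.6% ± 2.04 and 28.1% ± 2.86. The difference was -4.54 percentage points. The exact permutation test gave p = 0.1 (two-sided), the smallest p that 3 against 3 can give, so this design could not reach the threshold. The rise of XBP1 mRNA thus came without a measured rise in the share of the spliced form. The separation of the groups depends on XBP1-204 being counted among the transcripts that span the site. XBP1-204 held 4.62% ± 1.52 of the XBP1 counts in control and 13.1% ± 0.64 in treated cells. Set against the largest form with the intron alone, the counts of XBP1-202 did not separate the groups. Only reads over the junction or the intron tell the forms apart directly, the record of XBP1-202 is shorter (1131 bases against 1850), and the sharing of the other reads rests on the estimate deposited by the authors.

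**Figure D3:**
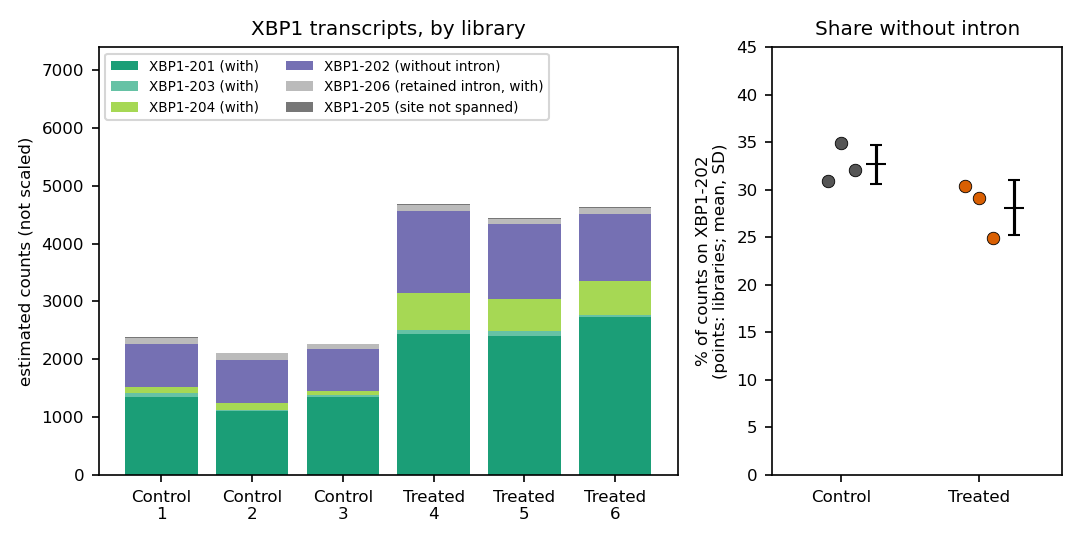
Left, estimated counts (not scaled between libraries) of the XBP1 transcripts in each library, stacked by transcript. Right, the share of counts on XBP1-202, the form without the 26-base intron, in % of transcripts that span the site, with the mean and SD: control libraries sit at 31.0% to 34.9% and treated libraries at 24.9% to 30.4%. The transcripts that span the site include XBP1-204.

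The translocation channel was measured by its pore subunit SEC61A1 and the small subunit SEC61B. SEC61A1 was at 342.4, 336.0 and 340.0 CPM in control and 221.3, 222.1 and 224.0 CPM in treated libraries, a clear gap between tight groups (log2 fold change -0.61, SE 0.027, adjusted p = 6.65e-13). SEC61B was at 37.5 ± 0.78 and 36.3 ± 1.74 CPM and did not pass (log2 fold change -0.05, SE 0.041, adjusted p = 0.312).

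Among chaperones, lectins and secreted ER factors 6 of 7 fell and 1 rose, against 34.5% and 34.9% of all genes. With limma on log2(TPM + 1), 3 of the 7 were lower. Their summed level was 2780 to 2891 CPM in control and 1908 to 1964 CPM in treated libraries. Over the transcripts matched to a gene, CALR, which encodes the calcium-binding lectin calreticulin, was the highest of the 38 genes per length in control cells. It was at 412.2 ± 22.1 TPM against 259.5 ± 16.8 for CANX. In treated cells the means were 221.0 ± 21.7 TPM for CALR and 245.1 ± 19.9 TPM for CANX, within their spread of each other. In CPM CALR was at 1384, 1348 and 1416 in control and 696.9, 691.8 and 668.5 in treated libraries (log2 fold change -1.01, SE 0.029, adjusted p = 2.35e-15). CANX, which encodes its membrane-bound partner calnexin, moved far less, from 874.5, 848.8 and 882.1 CPM to 762.3, 768.1 and 749.9 CPM (log2 fold change -0.19, SE 0.027, adjusted p = 5.94e-06). The 2 lectins bind the same kind of sugar on folding glycoproteins. With TPM the CANX value was -0.08 and did not pass.

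UGGT1, the enzyme that puts the sugar back on unfolded glycoproteins so that the lectins bind again, was at 163.9, 156.2 and 162.4 CPM in control and 169.7, 173.1 and 172.0 CPM in treated libraries (log2 fold change 0.09, SE 0.030, adjusted p = 0.00973). That small rise was turned by the choice of transcripts: counted over protein-coding transcripts alone, UGGT1 was lower by a log2 of -0.10 (adjusted p = 0.00715). The coding transcript UGGT1-201 held 46.2% ± 0.93 of the counts in control and 37.9% ± 0.32 in treated cells, and UGGT1-202, annotated as a target of nonsense-mediated decay, held 36.3% ± 0.71 and 41.3% ± 0.54.

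HYOU1, an HSP70-like protein that exchanges nucleotide on the chaperone BiP, was at 313.3, 293.3 and 289.5 CPM in control and 248.0, 253.1 and 240.1 CPM in treated libraries (log2 fold change -0.27, SE 0.033, adjusted p = 9.35e-07). SDF2L1, a partner of ER chaperones, was at 12.7, 10.7 and 11.8 CPM against 10.0, 8.88 and 10.2 CPM. The gap between these groups was narrow (log2 fold change -0.28, SE 0.079, adjusted p = 0.00479), and without treated replicate 5 the value was -0.19 and did not pass (adjusted p = 0.0588). With limma on log2(TPM + 1), neither HYOU1 (-0.12, adjusted p = 0.309) nor SDF2L1 (-0.17, adjusted p = 0.175) passed. The secreted factors moved further. MANF, a protein released when ER calcium falls, fell from 105.2 ± 3.31 to 62.4 ± 4.25 CPM (log2 fold change -0.75). CRELD2, another secreted protein of ER stress, was at 22.9, 20.1 and 20.7 CPM in control and 9.61, 7.53 and 8.58 CPM in treated libraries (log2 fold change -1.31, SE 0.084, adjusted p = 6.66e-09).

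In oxidative folding, the making of disulfide bonds, 7 of 8 genes fell, none rose and PDIA3 did not pass. Of all genes, 34.5% fell and 34.9% rose. With limma on log2(TPM + 1), 4 of the 8 were lower. The summed level of the 8 genes was 822 to 866 CPM in control and 547 to 579 CPM in treated libraries. Among the protein disulfide isomerases, PDIA6 fell from 371.9 ± 10.1 to 239.2 ± 2.49 CPM (log2 fold change -0.64) and TXNDC5 from 216.6 ± 7.69 to 157.9 ± 0.61 CPM (-0.46). PDIA4 was at 24.1, 23.1 and 23.5 CPM in control and 13.5, 13.4 and 12.5 CPM in treated libraries (log2 fold change -0.84, SE 0.053, adjusted p = 1.13e-10). The oxidases that pass electrons from the isomerases to oxygen fell too, though neither passed with limma on log2(TPM + 1). There ERO1A was at -0.12 (adjusted p = 0.262) and ERO1B at -0.29 (adjusted p = 0.174). ERO1A was at 90.2, 86.3 and 88.3 CPM in control and 77.1, 76.0 and 75.6 CPM in treated libraries (log2 fold change -0.21, SE 0.033, adjusted p = 1.60e-05), and its paralog ERO1B fell from 17.8 ± 0.94 to 12.1 ± 1.43 CPM (-0.55).

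The remaining disulfide isomerases rest on weaker ground. P4HB, which encodes the founding member PDI, was at 116.1, 144.8 and 83.2 CPM in control and 63.6, 42.8 and 40.2 CPM in treated libraries (log2 fold change -1.23, SE 0.31, adjusted p = 0.024). The groups did not overlap, but the call was lost without control replicate 1 (adjusted p = 0.0728), control replicate 2 (0.065), treated replicate 5 (0.0923) or treated replicate 6 (0.0896). Over protein-coding transcripts alone the P4HB value was -3.05 and did not pass (adjusted p = 0.112). Its counts moved between transcripts from library to library: P4HB-223 had 3077 estimated counts in control replicate 2 and no more than 156.6 in any other library. PDIA3, at 6.90 ± 1.51 and 6.31 ± 0.34 CPM, did not pass (log2 fold change -0.13, SE 0.15, adjusted p = 0.470), though without control replicate 3 it did (-0.30, adjusted p = 0.0121). PDIA5 was at 7.93 ± 0.29 and 6.97 ± 0.27 CPM (-0.19, adjusted p = 0.0473). Leaving out any library ended the PDIA5 call (adjusted p 0.0613 to 0.222), and the direction turned with TPM (0.16). Transcripts whose identifiers were not matched to a gene are left out of all gene sums. The levels of any gene, among them PDIA3, P4HB, WFS1 and EDEM3, may therefore be a part of their total.

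The listed ERAD genes moved against the listed folding genes: 8 of the 12 tested rose, 2 fell and 2 did not pass. Of all genes, 34.9% rose and 34.5% fell. The summed level of the listed ERAD genes was 596 to 618 CPM in control and 822 to 835 CPM in treated libraries. This direction did not hold for 18 further ERAD genes taken for comparison, of which 6 rose and 10 fell. HERPUD1, which gathers the ubiquitin ligase complex in the membrane, was at 63.8, 59.6 and 60.7 CPM in control and 119.7, 122.5 and 119.8 CPM in treated libraries (log2 fold change 0.98, SE 0.034, adjusted p = 3.49e-14). Its paralog HERPUD2 rose from 27.3 ± 1.02 to 45.5 ± 1.96 CPM (0.74). The derlins, membrane proteins of the exit channel, were separated into measured and silent members. DERL2 was at 35.8, 35.7 and 35.3 CPM in control and 66.6, 67.3 and 64.8 CPM in treated libraries (log2 fold change 0.90, SE 0.036, adjusted p = 2.09e-13). DERL1 rose from 53.6 ± 0.75 to 82.3 ± 1.37 CPM (0.62). DERL3 was at 0.109, 0.158 and 0 CPM in control and 0, 0.0797 and 0.0614 CPM in treated libraries, too few counts to be tested. SELENOS, a selenoprotein that links the derlins to the ATPase VCP, rose from 34.0 ± 1.18 to 61.8 ± 0.92 CPM (0.86).

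Among the parts that recognise a misfolded glycoprotein, the lectin OS9 rose from 120.4 ± 2.03 to 167.9 ± 2.43 CPM (log2 fold change 0.48) and the mannosidase EDEM2, which starts the trimming of its sugar, from 27.0 ± 0.95 to 30.8 ± 0.64 CPM (0.19). EDEM1 was at 89.9 ± 2.80 and 84.8 ± 1.98 CPM with overlapping groups (-0.08, adjusted p = 0.0379). The EDEM1 call was lost without any single library other than control replicate 2 (adjusted p 0.0545 to 0.320), and with TPM the value was 0.08, so its direction was not stable. EDEM3 gave no usable comparison, at 1.63, 8.31 and 7.04 CPM in control and 6.34, 6.29 and 1.41 CPM in treated libraries (log2 fold change -0.27, SE 0.87, adjusted p = 0.810). In EDEM3, too, counts jumped between transcripts, with 304.6 on EDEM3-201 in control replicate 2 and 0 in control replicate 1.

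In the core of the ubiquitin ligase complex, the SYVN1 value depended on how transcripts were counted and the SEL1L call on the fit used. SEL1L, the adaptor that holds the ligase, was at 73.1, 66.4 and 74.4 CPM in control and 83.6, 79.6 and 78.1 CPM in treated libraries (log2 fold change 0.17, SE 0.044, adjusted p = 0.00229). With TPM it was 0.22 and did not pass (adjusted p = 0.080). SYVN1, which encodes the ligase HRD1, was at 37.6, 38.7 and 37.5 CPM against 35.5, 36.1 and 35.7 CPM (log2 fold change -0.09, SE 0.035, adjusted p = 0.0414). The groups did not overlap, but the call was lost without any single library (adjusted p 0.0604 to 0.326), and over protein-coding transcripts alone SYVN1 was higher by 0.22 (adjusted p = 0.00198). With an offset for effective length it was lower by more, at -0.51 (adjusted p = 1.78e-05), and with limma on log2(TPM + 1) it was at -0.37 (adjusted p = 0.0069), so neither its direction nor its size was stable. A transcript of SYVN1 annotated as retaining an intron held 26% ± 0.45 of the counts in control and 11.2% ± 0.40 in treated cells (log2 fold change of its level -1.27, adjusted p = 2.42e-04). UBE2J1, the ubiquitin-conjugating enzyme of the complex, was at 45.9 ± 3.27 and 48.9 ± 3.03 CPM and did not pass (0.09, adjusted p = 0.192), while it passed without control replicate 1 (0.15, adjusted p = 0.0328) and without treated replicate 4 (0.17, adjusted p = 0.00491).

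The share of counts on protein-coding transcripts, against retained-intron, decay and other transcripts of a gene, is a readout that the sums do not show. Of 31 listed genes with enough counts of both kinds, 4 had a higher coding share in treated cells and 4 a lower one (limma, adjusted p under 0.05). Of 9569 genes tested in this way 6.93% were higher and 11.9% lower. The median log2 difference of the coding to non-coding ratio was -0.06 for the listed genes and -0.06 for all. The coding share rose in XBP1 (94.9% ± 0.79 to 97.5% ± 0.15), CREB3L2, PDIA4 and SYVN1 (51.6% ± 1.75 to 62.6% ± 3.21). It fell in MBTPS2, SEC61A1, UGGT1 (52.8% ± 0.74 to 45.1% ± 0.43) and PDIA5 (61.2% ± 2.21 to 41.9% ± 4.17). When any single library was left out, 2 to 5 genes were called in place of 8. For CALR, coding transcripts held 40.9% ± 1.55 of the counts in control and 39.9% ± 1.97 in treated cells, and most of its sum sat on a transcript annotated as a decay target.

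The promoters of several of these genes hold the elements through which the unfolded protein response was defined. Windows of 300 bases (250 before and 50 after the start site, RefSeq, GRCh38.p14) were found for 35 of the 38 genes and searched on both strands. The ER stress response element (ERSE), at which ATF6 binds with NF-Y, was in 27 of 35116 windows (0.0769%), and 6 of the 35 listed genes had it: CALR, CANX, CRELD2, ERO1B, PDIA6 and XBP1. ERSE-II was in 19 windows (0.0541%), among them those of HERPUD1, HYOU1 and SDF2L1. Such elements were first described in genes of this kind, so their presence is no independent finding. Of the 9 genes with ERSE or ERSE-II, only XBP1 and HERPUD1 rose, and the other 7 fell. Among all 37 tested listed genes 20 fell. With limma on log2(TPM + 1), the falls of CANX, HYOU1, SDF2L1 and ERO1B did not pass. Stretches with the motif letters in capitals are given for genes of both directions, on the strand of the gene.
XBP1, ERSE (rose), chr22:28800583-28800641, minus: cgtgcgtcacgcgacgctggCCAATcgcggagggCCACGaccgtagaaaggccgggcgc
CALR, ERSE (fell), chr19:12938364-12938422, plus: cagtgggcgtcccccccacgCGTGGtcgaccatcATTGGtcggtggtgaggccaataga
ERO1B, ERSE (fell), chr1:236282163-236282208, minus: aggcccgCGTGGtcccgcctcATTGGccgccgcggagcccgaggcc
HERPUD1, ERSE-II (rose), chr16:56932005-56932055, plus: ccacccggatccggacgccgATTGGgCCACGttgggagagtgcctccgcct
SDF2L1, ERSE-II (fell), chr22:21642094-21642144, plus: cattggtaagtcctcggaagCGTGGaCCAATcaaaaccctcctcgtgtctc
HYOU1, first ERSE-II (fell), chr11:119057360-119057410, minus: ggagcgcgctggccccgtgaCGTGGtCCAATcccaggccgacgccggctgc
HYOU1, second ERSE-II (fell), chr11:119057254-119057304, minus: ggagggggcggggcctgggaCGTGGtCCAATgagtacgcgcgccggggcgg

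The unfolded protein response element (UPRE, TGACGTGG), associated with spliced XBP1, was in 0.729% of windows and in those of HYOU1, where it overlaps the first ERSE-II, TXNDC5 and UBE2J1. None of these 3 rose by the test. The C/EBP-ATF response element (CARE, TGATGNAA), at which ATF4 binds with C/EBP factors, was in 3.62% of windows and in those of CREB3L2, which fell, and HERPUD1, which rose. HERPUD1 was the only listed gene with both ERSE-II and CARE, and the CARE stretch is shown for that reason.
HERPUD1, CARE, chr16:56931946-56931993, plus: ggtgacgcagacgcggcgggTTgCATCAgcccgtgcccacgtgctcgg
A match gives the letters of a motif in this window only, and binding was not measured.

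**Figure D4:**
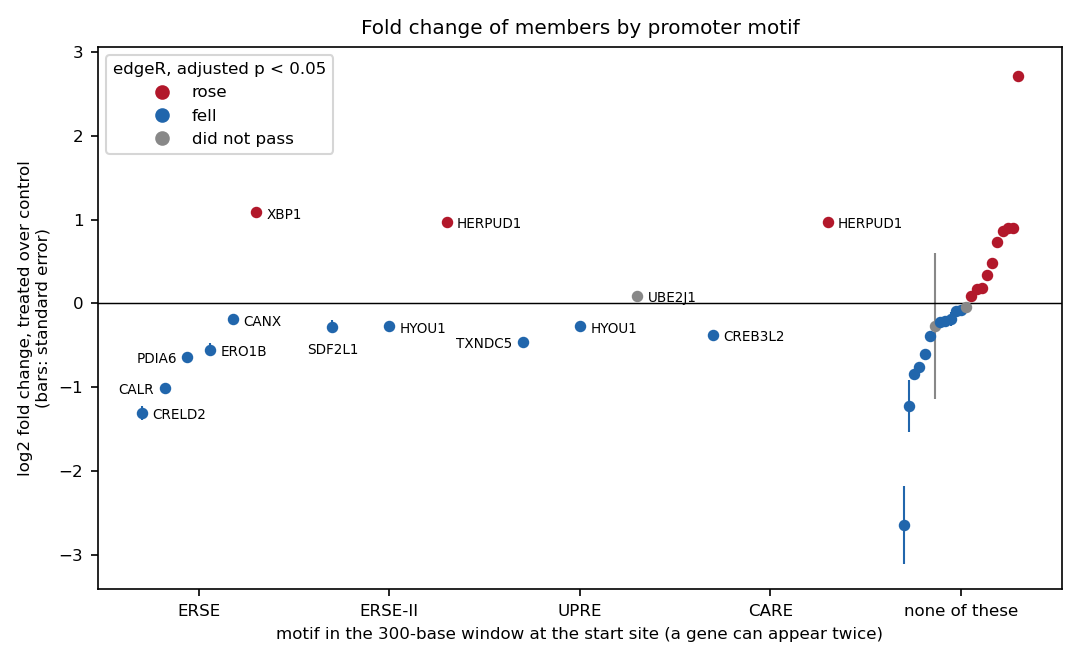
Log2 fold change (y axis, with standard error) of the listed genes by the motif found in the 300-base window at the start site, in red where the gene rose, blue where it fell and grey where it did not pass. XBP1 and HERPUD1 stand above 0 among genes with ERSE or ERSE-II, and the other 7 stand below it.

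Other genes of the same pathways were taken from lists for comparison. Their counts stand beside 34.9% of all genes that rose and 34.5% that fell. All 9 genes of the PERK and ATF4 arm rose, with a median log2 fold change of 3.03. DDIT3, the stress transcription factor CHOP, went from 12.9 ± 0.63 to 205.1 ± 5.07 CPM, PPP1R15A and ATF3 had the lowest adjusted p, and the PERK gene EIF2AK3 rose only by a log2 of 0.28 and ATF4 mRNA by 0.59. BiP, GRP94 and the ER DNAJ cochaperones gave 4 genes that rose, 2 that fell and 2 below the test's threshold (median 0.08). HSPA5, which encodes BiP, the chief chaperone of the ER, rose from 234.3 ± 16.5 to 408.3 ± 7.70 CPM (log2 fold change 0.80), against the direction of CALR and HYOU1. HSP90B1, which encodes GRP94, went from 780.5 ± 23.6 to 508.4 ± 4.21 CPM. DNAJB9, a cochaperone known to hold IRE1 inactive, rose by 1.53, and DNAJC1 by 0.89. SIL1, which exchanges nucleotide on BiP as HYOU1 does, fell by 0.42. HSPA5 and HSP90B1 both have an ERSE in the window.

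In the list of N-glycosylation and glycan trimming, 10 of 12 genes fell and only MOGS rose (median log2 fold change -0.54). Of all genes, 34.5% fell and 34.9% rose, which holds for each list here. RPN1 and STT3B, subunits of the oligosaccharyltransferase that attaches the sugar, fell by 0.99 and 0.80. Of 15 genes of the translocon, signal peptidase and TRAP complex, 9 fell and 4 rose (median -0.28). SEC11A, a catalytic subunit of signal peptidase, fell by 0.87 and its paralog SEC11C rose by 0.27. Of 11 further thiol oxidoreductases and prolyl isomerases, 6 fell and 3 rose (median -0.17), among them TMX1 and PPIB lower and TXNDC11 and FKBP14 higher.

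The 18 further ERAD genes did not share the direction of the 12 listed ones, with 6 that rose and 10 that fell (median -0.30). For this and the next lists, the shares of all genes were 34.9% that rose and 34.5% that fell. The ligase RNF139 and the conjugating enzyme UBE2J2 rose by a log2 of 1.19 and 1.16, while the conjugating enzyme UBE2G2 fell by 1.38. UFD1, which works with the ATPase VCP that pulls proteins out of the membrane, fell by 0.83. Of 6 RNAs known as substrates of the RNase of IRE1 outside XBP1, 5 fell (median -1.51), among them SPARC, from 763.4 ± 15.7 to 367.7 ± 12.3 CPM, and PDGFRB, from 9.65 ± 1.03 to 2.08 ± 0.17 CPM. BLOC1S1, the most widely used marker of this cleavage, was at 30.6 ± 0.99 and 31.9 ± 2.08 CPM and did not pass (log2 fold change 0.06, adjusted p = 0.295). Of the remaining sensors and splicing partners, 1 of 6 rose and 3 fell. RTCB, the ligase that joins the ends of cut XBP1 mRNA, fell by 0.41, CREB3 rose by 0.15, and CREB3L3 was at 1.09 ± 0.085 CPM in control and 0.032 ± 0.039 CPM in treated cells.

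**Figure D5:**
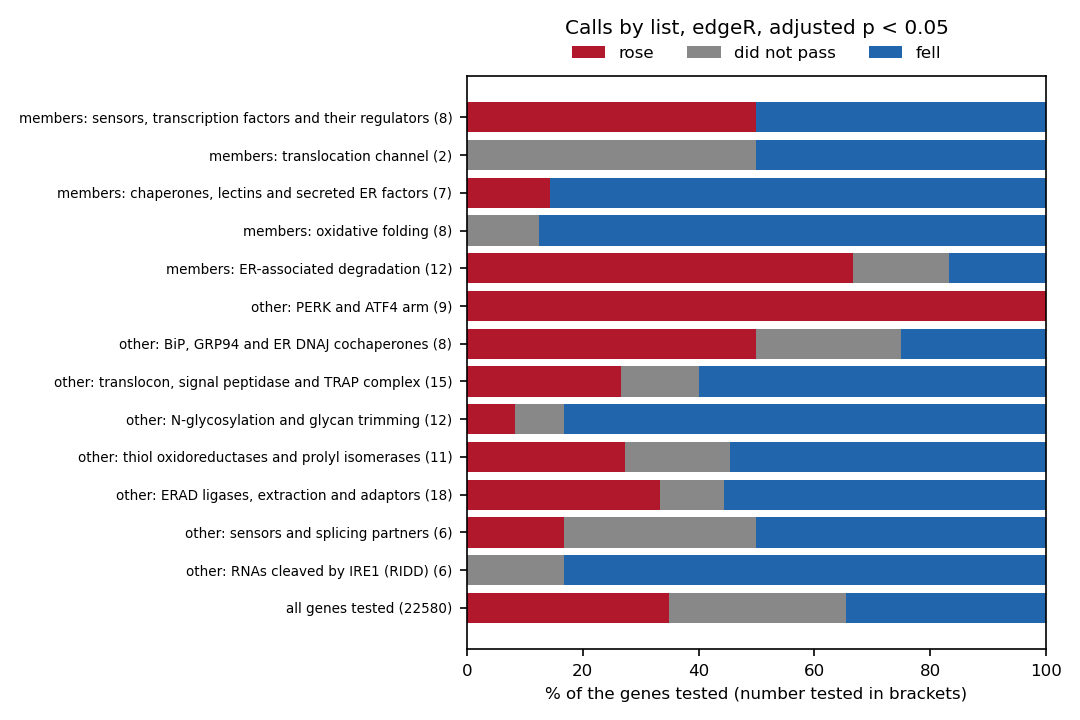
Share of the tested genes of each list (x axis, in %, number tested in brackets) that rose (red), did not pass (grey) or fell (blue). The listed ERAD genes have 8 of 12 in red, the lists of chaperones and oxidative folding have 6 of 7 and 7 of 8 in blue, and all genes tested are given in the lowest bar.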

How the data were processed

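RNA of 3 control and 3 treated cultures was measured, and the labels call the cultures independent. The deposited tables give, per the file headers, estimated counts (expected counts) and TPM for each of 244939 transcripts. Kallisto 0.45.0 and DESeq2 1.30.0 are listed, with no role, per the submitters' processing notes. For the transcript index and build, nothing was given in the sources used here. Identifiers of 203436 transcripts matched GENCODE 29 (GRCh38). The other 41503, with 4.86% to 5.13% of a library's counts, were left out. Counts were not separable by strand.

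Estimated counts were summed to genes, rounded to whole numbers, filtered (filterByExpr, minimum count 10, minimum total 15), scaled by TMM, and tested in edgeR 4.0.16 (R 4.3.3) by its quasi-likelihood test (robust, two-sided, Benjamini-Hochberg over all genes tested, threshold 0.05). Under TMM a typical gene has no change, and fold changes are relative to it. The fits were tested on simulated data. The common coefficient of variation between replicates was 7.40%. No 2 replicates agreed within sampling noise (chi-square per degree of freedom 4.52 to 13.0). Transcript fits used the same edgeR steps. Coding shares were tested with limma 3.58.1 on log2 ratios with 1 added to each sum, for genes with a mean of at least 10 counts of each kind. Precision of estimated counts is limited by the sharing of reads between transcripts.

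Values by library are given for 13 genes chosen by name and, in each group of genes, for up to 2 that rose and 2 that fell most among those called, with a mean of at least 10 CPM and no overlap of libraries. Of the lists, the 2 with the lowest adjusted p in each direction are named, with further genes by name. The 38 genes, lists and rules were chosen with earlier results of these data known. Promoter sequences are those of RefSeq. No sequence is shown where the motif lay after a start site.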

Additional observations from a re-analysis of the deposited data

How the results depend on the processing

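Of the 33 calls among the listed genes, 20 kept their call and direction in every alternative that gave a value other than the requirement of 1.5-fold: ATF6, DERL1, DERL2, EDEM2, ERN1, HERPUD1, HERPUD2, MBTPS2, OS9, SELENOS and XBP1 were higher, and CALR, CREB3L2, CRELD2, MANF, PDIA4, PDIA6, SEC61A1, TXNDC5 and WFS1 lower (WFS1 gave no value with the minimum of 10 CPM). The median of the listed genes (-0.19) was -0.11 with library totals, -0.083 with a minimum of 10 CPM, -0.053 with an offset for effective length, -0.14 over protein-coding transcripts and 0.05 with limma on log2(TPM + 1) and on log2(TPM + 0.1) (0.049 and 0.050), and it ran from -0.18 to -0.11 when 1 library was left out. The median of all genes was 0.03 and 0.08 on the TPM scales. Both TPM fits gave 11 lower genes in place of 20: 2 sensors, 3 chaperones and 4 of oxidative folding. With at least 1.5-fold required (glmTreat), 7 were higher and 6 lower, with 1 lower sensor, 3 lower chaperones, 2 lower in oxidative folding and 4 higher in ERAD. DESeq2 1.42.0 and other settings not named left these counts within 1.5 times. The count of changed coding shares (8) was 2 to 5 when 1 library was left out. PDIA5 turned to 0.11 with the length offset, 0.16 with TPM + 1 and 0.20 with TPM + 0.1. EDEM1 turned to 0.079 and 0.084 with TPM. Over protein-coding transcripts UGGT1 turned to -0.10 and SYVN1 to 0.22. The cause of these changes was not tested. The XBP1 difference was -5.64 points with TPM, -5.62 over coding transcripts and -4.59 from the transcript fit. It was -5.67 to -2.93 when 1 library was left out, where the exact permutation test cannot go below 0.1. All of these settings counted XBP1-204. No paired analysis was possible because the groups share no replicate numbers. SYVN1 was at -0.51 with the length offset and -0.37 and -0.40 with TPM, and P4HB at -3.05 over protein-coding transcripts.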
